A study of Mus musculus with 8 samples.

Results

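The genes described here are 42 peroxisomal genes of mouse liver: 25 genes for enzymes of the peroxisomal matrix, 4 genes for proteins that carry metabolites across the peroxisomal membrane or form channels in it, and 13 genes for peroxins, the proteins that build the organelle. They were taken by symbol from a table of 22565 protein-coding genes. All livers came from male C57BL/6J mice aged 10 weeks, and the labels name no engineered allele. The dexamethasone group received 1.0 mg/kg of the synthetic glucocorticoid by intraperitoneal injection each day for 14 days, and the vehicle group received saline on the same schedule. Each group held 4 libraries, here called vehicle 1 to 4 and dexamethasone 1 to 4, made from liver RNA depleted of ribosomal RNA.

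Peroxisomes shorten fatty acids that mitochondria handle poorly, among them very long, branched and dicarboxylic chains and the side chain of bile acid precursors. Their oxidases pass electrons to oxygen and make hydrogen peroxide, which catalase breaks down. Matrix proteins are made in the cytosol and imported folded by receptors of the peroxin family, membrane proteins are inserted by another set of peroxins, and proteins of the PEX11 family shape the membrane when peroxisomes multiply. In rodent liver many of the fatty acid enzymes are known targets of the nuclear receptor PPARA, which binds fatty acids and works as a partner of RXRA.

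Levels are given in FPKM, a count of fragments per transcript length and library size, and fold changes are differences on the log2(FPKM + 1) scale, on which low genes appear to change less than they do. A test with limma was made for the 10221 genes that were at 0.5 FPKM or above in 4 or more libraries, with p-values adjusted by the Benjamini-Hochberg method over all of them and a threshold of 0.05. The libraries held an inferred 1361293 to 3360083 fragments on protein-coding genes. The mitochondrial leucyl-tRNA synthetase gene Lars2 took 14.5% to 25.3% of them with vehicle and 28.4% to 51.1% with dexamethasone, with the highest share in dexamethasone 4. Over all tested genes the median change was -0.28 on the log2 scale as deposited and 0.00 after median-ratio scaling, in which every library is divided by a factor set by its typical gene, here called scaling. Both values are therefore given for the genes of the set that are named below with a fold change. As deposited, dexamethasone 4 was the lowest library of its group for 30 of the 41 peroxisomal genes tested, and after scaling for 17. Hepatocyte markers were high throughout, with the 10 markers summing to 19323 to 28108 FPKM with vehicle and 11837 to 21821 FPKM with dexamethasone. After scaling the sums were 15156 to 22669 and 17497 to 23295. Much of each sum was Alb, at a mean of 13037 FPKM with vehicle and 9196 FPKM with dexamethasone as deposited. In whole liver, fewer cells of a type and less RNA per cell cannot be told apart.

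Dexamethasone changed a small number of peroxisomal genes, in both directions. The thiolase gene Acaa1b, the coenzyme A hydrolase gene Nudt7 and the carnitine octanoyltransferase gene Crot fell. The oxidase gene Acox2 and the membrane-shaping peroxin gene Pex11a rose. These 5 genes passed the threshold both as deposited and after scaling, as did 4.43% of all tested genes in the same direction. As deposited, 2 of the 41 tested genes rose and 7 fell, where 9.22% of all tested genes changed, 1.37% up and 7.85% down. After scaling 2 rose and 3 fell, against 3.35% and 3.06% of all tested genes, or 6.41% in all. The median log2 fold change of the 41 genes was -0.43 as deposited and -0.02 after scaling, beside -0.28 and 0.00 for all tested genes. The 42nd gene, Abcd2, did not reach the level needed for a test.

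**Figure D1:**
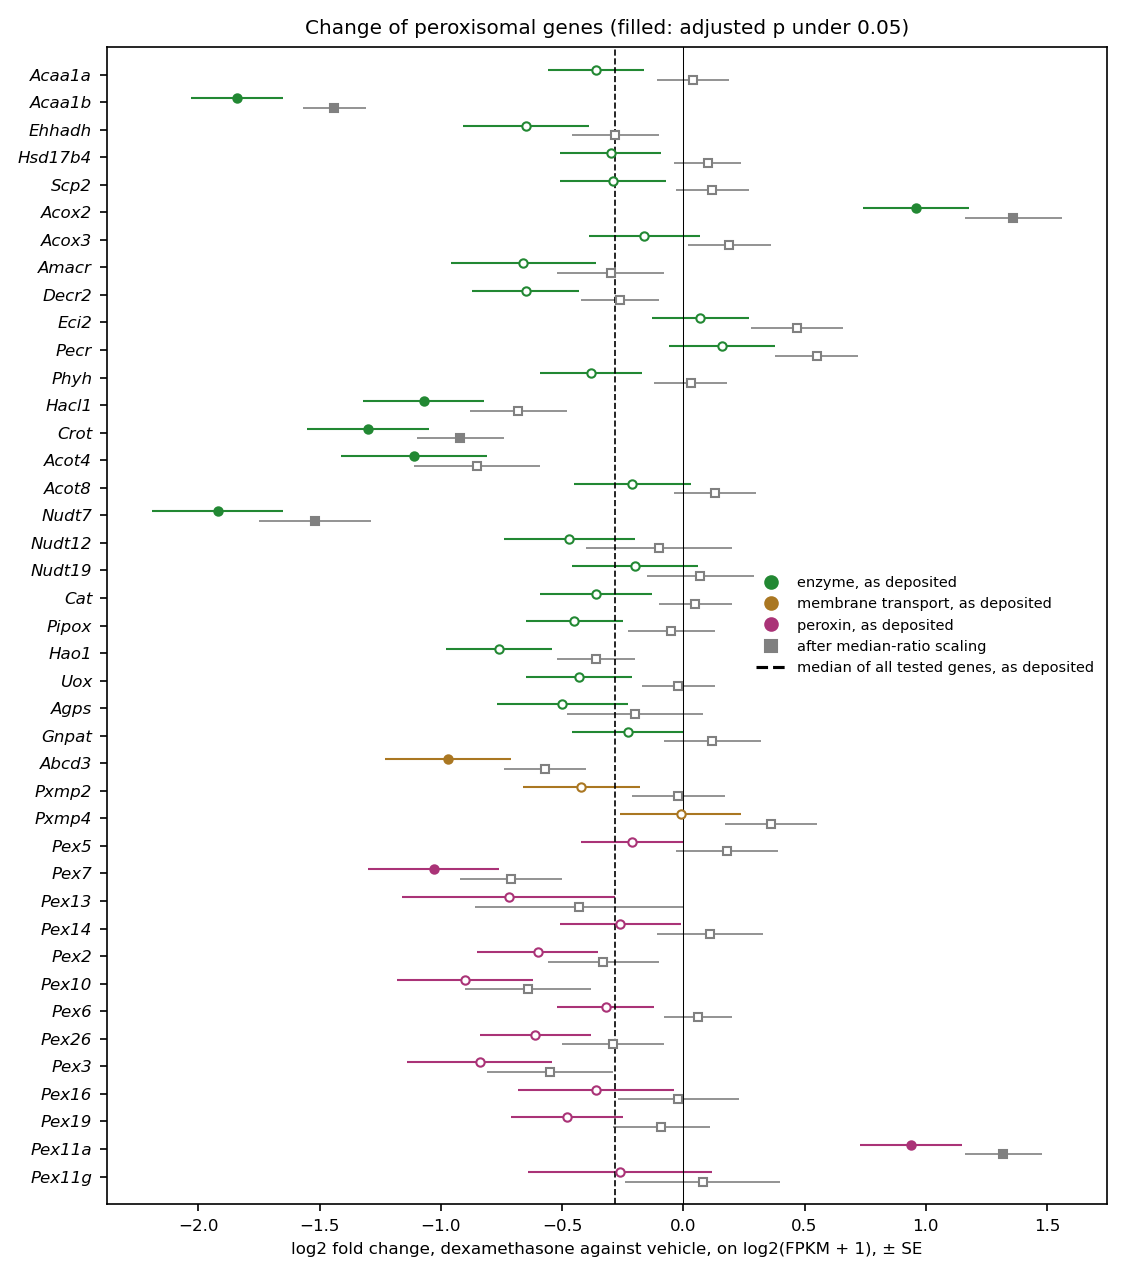
Log2 fold change of each of the 41 tested peroxisomal genes, dexamethasone against vehicle, with standard errors as bars. Coloured circles are values as deposited, grey squares are values after scaling, filled symbols have an adjusted p under 0.05, and the dashed line marks the median of all tested genes at -0.28. Acaa1b, Nudt7 and Crot lie far to the left and Acox2 and Pex11a to the right in both sets of values.

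Promoter sequences of the 5 genes that passed the threshold both ways, and of Acaa1a, the close relative and neighbour of Acaa1b, are shown so that the genes can be compared at the DNA level. Each runs 5′ to 3′ on the gene's own strand from 250 bases before to 50 bases after the transcription start, from RefSeq on GRCm38.p6, and capitals mark CpG dinucleotides. The windows are chr9:119157044-119157343 on the minus strand for Acaa1b, chr9:119341044-119341343 on the plus strand for Acaa1a, chr8:114133324-114133623 on the plus strand for Nudt7, chr5:8997097-8997396 on the minus strand for Crot, chr14:8258790-8259089 on the minus strand for Acox2 and chr7:79743082-79743381 on the minus strand for Pex11a.
Acaa1b: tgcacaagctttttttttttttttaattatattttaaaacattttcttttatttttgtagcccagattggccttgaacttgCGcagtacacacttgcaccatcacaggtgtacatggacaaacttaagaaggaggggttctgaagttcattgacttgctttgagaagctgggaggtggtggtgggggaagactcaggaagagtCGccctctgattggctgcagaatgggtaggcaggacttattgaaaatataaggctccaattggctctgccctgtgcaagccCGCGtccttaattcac
Acaa1a: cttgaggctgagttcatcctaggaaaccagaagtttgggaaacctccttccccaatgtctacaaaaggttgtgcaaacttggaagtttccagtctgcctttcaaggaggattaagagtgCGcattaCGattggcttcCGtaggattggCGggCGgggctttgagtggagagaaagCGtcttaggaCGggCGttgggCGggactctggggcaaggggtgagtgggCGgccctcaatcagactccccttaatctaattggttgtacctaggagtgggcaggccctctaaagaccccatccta
Nudt7: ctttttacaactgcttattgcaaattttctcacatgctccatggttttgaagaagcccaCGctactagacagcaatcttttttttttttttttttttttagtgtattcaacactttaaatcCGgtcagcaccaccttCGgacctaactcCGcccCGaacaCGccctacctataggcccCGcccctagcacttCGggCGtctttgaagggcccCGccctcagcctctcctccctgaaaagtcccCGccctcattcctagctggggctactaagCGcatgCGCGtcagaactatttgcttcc
Crot: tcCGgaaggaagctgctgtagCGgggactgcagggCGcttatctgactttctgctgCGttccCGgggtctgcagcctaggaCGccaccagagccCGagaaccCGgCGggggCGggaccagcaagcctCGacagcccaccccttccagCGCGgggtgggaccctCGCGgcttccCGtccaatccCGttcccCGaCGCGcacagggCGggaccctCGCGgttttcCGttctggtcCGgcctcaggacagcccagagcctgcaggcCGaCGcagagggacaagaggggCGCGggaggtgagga
Acox2: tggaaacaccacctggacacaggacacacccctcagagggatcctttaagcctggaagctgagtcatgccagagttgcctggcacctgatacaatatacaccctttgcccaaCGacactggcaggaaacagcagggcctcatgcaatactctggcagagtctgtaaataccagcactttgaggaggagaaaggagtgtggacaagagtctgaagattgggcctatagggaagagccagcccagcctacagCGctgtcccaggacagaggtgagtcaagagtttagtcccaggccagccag
Pex11a: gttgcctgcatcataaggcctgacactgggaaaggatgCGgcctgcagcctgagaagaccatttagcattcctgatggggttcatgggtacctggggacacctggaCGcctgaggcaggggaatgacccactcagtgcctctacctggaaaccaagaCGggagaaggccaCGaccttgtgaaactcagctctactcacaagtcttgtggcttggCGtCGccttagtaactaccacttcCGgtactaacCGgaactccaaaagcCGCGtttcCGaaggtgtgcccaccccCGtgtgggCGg
The promoters differed in CpG content. The window held 29 CpG dinucleotides for Crot, 14 for Nudt7, 13 for Pex11a, 10 for Acaa1a, 4 for Acaa1b and 2 for Acox2. A second promoter is listed for Nudt7, with 15, and for Acox2, with 4, and is not shown. The table matched 35 of the 42 genes, with 41 promoters, whose median was 14 CpG dinucleotides and 57% G and C, beside 7 and 52.7% over all 32851 promoters. Both strands were searched for the PPAR element as the direct repeat AGGTCANAGGTCA and in the looser form AGGNCANAGGNCA, and for the glucocorticoid receptor element as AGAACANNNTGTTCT and GNACANNNTGTNC. None of these letters was found in the 41 promoters, and of all promoters 0.0396%, 0.381%, 0.00913% and 0.475% held them. The elements are so rare in such windows that their absence from 41 promoters says little about these genes. Sites outside the windows were not searched. The half-site AGGTCA, which is part of the first repeat, occurred in 12.2% of the 41 promoters and in 16.3% of all, and AGAACA in 9.76% and 19%.

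The enzymes of the beta-oxidation spiral held a fall and a rise that passed both as deposited and after scaling. Acaa1b encodes a peroxisomal thiolase, which cleaves off the shortened chain in the last step, and lies at chr9:119148023-119157093 on the minus strand. Its level was 125, 133, 115 and 98.8 FPKM in vehicle 1 to 4 and 32.5, 34.6, 35.6 and 26.0 FPKM in dexamethasone 1 to 4. Every dexamethasone library lay far below every vehicle library. The mean went from 118 ± 14.8 to 32.2 ± 4.31 FPKM (SD, n = 4 each), a log2 fold change of -1.84 ± 0.19 (SE) with a limma adjusted p of 1.4e-04, and of -1.44 after scaling with an adjusted p of 8.3e-05. The gene passed the threshold without any of the 8 libraries, with log2 fold changes from -1.92 to -1.75.

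Acaa1a encodes the other thiolase of this kind and lies on the same chromosome at chr9:119339676-119350299 on the plus strand. Its level was 31.7, 31.0, 38.5 and 25.2 FPKM with vehicle and 26.9, 26.9, 22.1 and 21.2 FPKM with dexamethasone. The groups overlapped, since vehicle 4 lay below dexamethasone 1 and 2. The log2 fold change was -0.36 ± 0.20 as deposited, with an adjusted p of 0.26, and 0.04 after scaling. Of the 50-base words in the longest coding transcripts, 35.5% of those of Acaa1b also occur in Acaa1a and 34% of those of Acaa1a in Acaa1b, and how the authors assigned fragments from these stretches is not given in the sources used here, so the split between the genes is uncertain. The ratio of Acaa1b to Acaa1a, which does not depend on how a library is scaled, was 3.94, 4.30, 2.99 and 3.92 with vehicle and 1.21, 1.29, 1.61 and 1.23 with dexamethasone. The sum of both genes, which is less affected by the split, was 124 to 164 FPKM with vehicle and 47.3 to 61.5 FPKM with dexamethasone, again without overlap. The locus the authors gave spans 5 other coding genes of the annotation for Acaa1a and 1, Dlec1, for Acaa1b, which adds to the uncertainty of what these levels count.

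Acox2 encodes the oxidase that starts the shortening of bile acid precursors, and lies at chr14:8225511-8259353 on the minus strand. Its level was 17.5, 22.9, 16.2 and 17.1 FPKM with vehicle and 50.8, 35.1, 28.3 and 34.9 FPKM with dexamethasone. All dexamethasone libraries lay above all vehicle libraries, and dexamethasone 1 was the highest. The mean rose from 18.4 ± 3.01 to 37.3 ± 9.55 FPKM, a log2 fold change of 0.96 ± 0.22 with an adjusted p of 0.017, and of 1.36 after scaling with an adjusted p of 0.0022. As deposited the gene missed the threshold without vehicle 3, at 0.90 with an adjusted p of 0.059. By level it went from the 18th of the 42 genes with vehicle to the 5th with dexamethasone, just ahead of Acaa1b. Acox3, a related oxidase gene of the set, stood at 4.67 to 7.56 FPKM with vehicle and 3.77 to 6.77 FPKM with dexamethasone. The log2 fold change of Acox3 was -0.16 with an adjusted p of 0.68, and 0.19 after scaling.

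The remaining enzymes of beta-oxidation did not pass the threshold as deposited or after scaling. Ehhadh, the bifunctional enzyme that hydrates and dehydrogenates the chain, stood at 17.5, 17.4, 14.8 and 12.5 FPKM with vehicle and 11.8, 10.1, 12.4 and 5.28 FPKM with dexamethasone. As deposited a narrow margin kept the groups apart, since vehicle 4 and dexamethasone 3 were almost equal. After scaling they overlapped, with dexamethasone 3 at 13.9 and vehicle 3 at 12.4. The change was -0.65 ± 0.26 on the log2 scale with an adjusted p of 0.12, and -0.28 after scaling. Scp2, whose longer product is a thiolase for branched chains, was among the highest of the 42 genes, at 191, 205, 230 and 208 FPKM with vehicle and 215, 204, 166 and 114 FPKM with dexamethasone. The groups overlapped, with dexamethasone 4 well below the rest. For Scp2 the log2 fold change was -0.29 ± 0.22 with an adjusted p of 0.41, and 0.12 after scaling. A processed copy, Scp2-ps2, holds 41.4% of the 50-base words of Scp2, so its level is uncertain. Hsd17b4, the second bifunctional enzyme, and Amacr, the racemase that prepares branched chains, had log2 fold changes of -0.30 and -0.66 with adjusted p-values of 0.38 and 0.17, and of 0.10 and -0.30 after scaling. The auxiliary enzymes that handle double bonds, Decr2, Eci2 and Pecr, had log2 fold changes of -0.65, 0.07 and 0.16 as deposited and -0.26, 0.47 and 0.55 after scaling, none past the threshold in either.

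Genes for the handling of acyl-CoA held 2 falls that passed both ways. Nudt7 encodes a hydrolase that splits coenzyme A and its esters inside the peroxisome, and lies at chr8:114133557-114154739 on the plus strand. Its level was 99.5, 108, 115 and 118 FPKM with vehicle and 51.9, 27.3, 24.0 and 18.3 FPKM with dexamethasone. All dexamethasone libraries were below all vehicle libraries, and dexamethasone 1 was the highest among them. The mean went from 109.9 ± 8.18 to 30.4 ± 14.8 FPKM, a log2 fold change of -1.92 ± 0.27 with an adjusted p of 0.0011, and of -1.52 after scaling with an adjusted p of 0.0029. Each of the 8 fits with a library left out passed the threshold, with log2 fold changes from -2.21 to -1.73. The related hydrolase genes Nudt12 and Nudt19 had log2 fold changes of -0.47 and -0.20 as deposited and -0.10 and 0.07 after scaling, with adjusted p-values of 0.28 or more.

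Crot encodes the transferase that puts shortened acyl chains on carnitine for export from the peroxisome, and lies at chr5:8966033-8997324 on the minus strand. Its level was 29.5, 36.8, 28.8 and 26.5 FPKM with vehicle and 17.9, 13.6, 10.0 and 7.35 FPKM with dexamethasone. Every dexamethasone library was lower than every vehicle library. The mean fell from 30.4 ± 4.48 to 12.2 ± 4.56 FPKM, a log2 fold change of -1.30 ± 0.25 with an adjusted p of 0.0077, and of -0.92 after scaling with an adjusted p of 0.012. It passed without each of the 8 libraries in turn, at -1.50 to -1.11. Acot4, a thioesterase that in mouse releases succinate and other dicarboxylic acids from coenzyme A, was low, at 5.15, 4.07, 4.30 and 2.63 FPKM with vehicle and 1.377, 3.13, 0.926 and 0.478 FPKM with dexamethasone. The groups overlapped, because dexamethasone 2 lay above vehicle 4. Its log2 fold change was -1.11 ± 0.30 with an adjusted p of 0.039, and -0.85 after scaling with an adjusted p of 0.084. It rested on 4 to 20 inferred fragments with dexamethasone, and 6 of the 8 fits with a library left out missed the threshold, with adjusted p-values of 0.064 to 0.1. Only leaving out vehicle 4 or dexamethasone 2 kept it, at 0.037 and 0.0089. Acot8, a thioesterase of broader range, stood at 4.04 to 6.55 FPKM with vehicle and 3.05 to 5.87 FPKM with dexamethasone, with a log2 fold change of -0.21 as deposited and 0.13 after scaling.

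Alpha-oxidation removes the first carbon of phytanic acid, a branched acid from the diet. Phyh, its hydroxylase, had the highest mean of the 42 genes with vehicle, at 197 to 241 FPKM, and stood at 121 to 225 FPKM with dexamethasone. Its log2 fold change was -0.38 as deposited and 0.03 after scaling. Hacl1, the lyase of the next step, stood at 37.1, 33.1, 29.6 and 37.5 FPKM with vehicle and 23.7, 19.1, 13.4 and 9.90 FPKM with dexamethasone. As deposited the groups were apart, and after scaling dexamethasone 1, at 24.9, lay just above vehicle 3, at 24.8. For Hacl1 the log2 fold change was -1.07 ± 0.25 with an adjusted p of 0.019, and -0.68 after scaling with an adjusted p of 0.07. As deposited it missed the threshold without vehicle 1, vehicle 2 or dexamethasone 3, with adjusted p-values of 0.0544, 0.0541 and 0.06. The annotated gene Gm49387 shares 55.6% of the 50-base words of Hacl1 and lies within the locus the authors gave for it. From the authors' scaled fragment counts in place of FPKM, with the same scaling, the log2 fold change of Hacl1 was -0.16 with an adjusted p of 0.67.

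**Figure D2:**
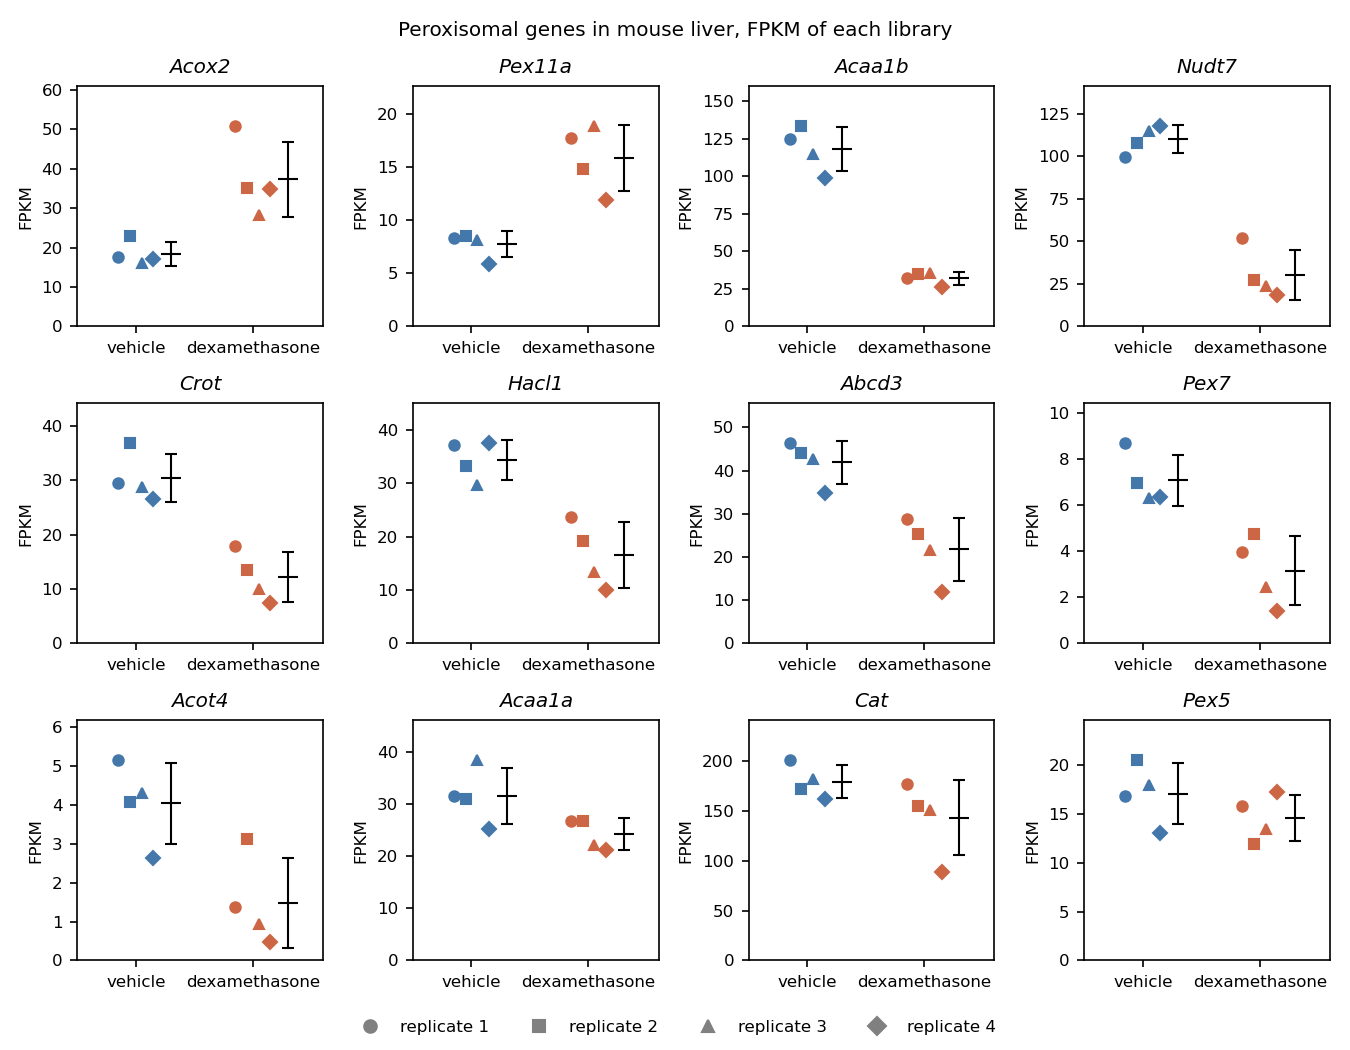
FPKM of 12 peroxisomal genes in each of the 8 libraries, as deposited; symbols mark the replicate number, horizontal bars the group mean and vertical bars the SD (n = 4). For Acaa1b the vehicle libraries lie between 98.8 and 133 FPKM and the dexamethasone libraries between 26.0 and 35.6 FPKM, whereas the groups of Acaa1a, Cat and Pex5 overlap.

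Catalase and the oxidases Uox, Hao1 and Pipox did not pass the threshold from FPKM, as deposited or after scaling. Cat, which breaks down hydrogen peroxide, stood at 201, 172, 182 and 163 FPKM with vehicle and 177, 155, 152 and 89.3 FPKM with dexamethasone. The groups overlapped, with dexamethasone 4 far below the others. The log2 fold change of Cat was -0.36 ± 0.23 with an adjusted p of 0.32, and 0.05 after scaling. Uox, the urate oxidase that rodents keep and humans have lost, stood at 227, 199, 154 and 137 FPKM with vehicle and 141, 144, 147 and 96.8 FPKM with dexamethasone. Vehicle 4 lay below 3 of the 4 dexamethasone libraries. The log2 fold change of Uox was -0.43 ± 0.22 with an adjusted p of 0.23, and -0.02 after scaling. Hao1, the glycolate oxidase that makes glyoxylate, stood at 29.8, 36.6, 36.8 and 34.6 FPKM with vehicle and 24.7, 23.6, 20.4 and 13.0 FPKM with dexamethasone. As deposited all 4 dexamethasone libraries were lower, and after scaling dexamethasone 1, at 25.9, lay above vehicle 1, at 24.0. The log2 fold change of Hao1, -0.76 ± 0.22, just missed the threshold with an adjusted p of 0.0504, and was -0.36 after scaling with an adjusted p of 0.22. Pipox, the oxidase of pipecolic acid and sarcosine, had a log2 fold change of -0.45 as deposited and -0.05 after scaling. Gnpat and Agps, which begin the synthesis of ether lipids, had log2 fold changes of -0.23 and -0.50 with adjusted p-values of 0.53 and 0.25, and of 0.12 and -0.20 after scaling.

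Of the membrane proteins, Abcd3 is a transporter that brings fatty acyl-CoA and bile acid precursors into the organelle. Its level was 46.4, 44.0, 42.6 and 34.8 FPKM with vehicle and 28.7, 25.3, 21.5 and 11.8 FPKM with dexamethasone. As deposited and after scaling, dexamethasone libraries lay below vehicle libraries without overlap. The mean went from 41.96 ± 5.004 to 21.8 ± 7.29 FPKM, a log2 fold change of -0.97 ± 0.26 with an adjusted p of 0.033, and of -0.57 after scaling with an adjusted p of 0.07. As deposited it missed the threshold without vehicle 1, 2 or 3 or dexamethasone 3, with adjusted p-values of 0.086, 0.089, 0.079 and 0.07. Pxmp2, a channel-forming protein, had a log2 fold change of -0.42 as deposited and -0.02 after scaling. Pxmp4, a membrane protein of less clear function, had values of -0.01 and 0.36, none past the threshold. Abcd2, a transporter of very long chains, stood at 0.694, 0.435, 0.151 and 0.154 FPKM with vehicle and 0.0332, 0.247 and 0.0693 FPKM in dexamethasone 1 to 3. It was listed at 0 in dexamethasone 4, and was not tested.

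Among the 13 peroxins the rise of Pex11a passed the threshold both as deposited and after scaling. Pex11a encodes a membrane protein that elongates peroxisomes before they divide and lies at chr7:79735957-79743131 on the minus strand. Its level was 8.31, 8.52, 8.16 and 5.90 FPKM with vehicle and 17.7, 14.8, 18.9 and 11.9 FPKM with dexamethasone. All dexamethasone libraries lay above all vehicle libraries. The mean rose from 7.72 ± 1.23 to 15.8 ± 3.11 FPKM, a log2 fold change of 0.94 ± 0.21 with an adjusted p of 0.017, and of 1.32 after scaling with an adjusted p of 7.2e-04. As deposited it missed the threshold without dexamethasone 3, at 0.85 with an adjusted p of 0.06. From the authors' scaled fragment counts without further scaling it was 0.76 and did not pass, and with scaling it was 1.23 with an adjusted p of 8.3e-05. Pex11g, the other gene of the PEX11 family in the set, was at 2.88 to 8.998 FPKM with vehicle and 2.69 to 10.6 FPKM with dexamethasone, with a log2 fold change of -0.26 and an adjusted p of 0.69, and of 0.08 after scaling.

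Of the receptors for matrix proteins, Pex7 passed the threshold as deposited and Pex5 did not. Pex7 is the receptor for the amino-terminal targeting signal that the thiolases of the Acaa1 kind carry. Its level was 8.68, 6.94, 6.30 and 6.33 FPKM with vehicle and 3.97, 4.75, 2.45 and 1.42 FPKM with dexamethasone. No dexamethasone library reached the lowest vehicle library, as deposited or after scaling. The log2 fold change was -1.03 ± 0.27 with an adjusted p of 0.034, and -0.71 after scaling with an adjusted p of 0.082. It kept the threshold only without dexamethasone 1 or dexamethasone 2, at 0.038 and 0.018, and the other 6 fits with a library left out gave adjusted p-values of 0.0528 to 0.098. Pex5, the receptor for the more common carboxy-terminal signal, stood at 16.8, 20.5, 18.0 and 13.0 FPKM with vehicle and 15.8, 11.9, 13.5 and 17.2 FPKM with dexamethasone. The groups overlapped widely, and dexamethasone 4 was the highest of its group. Its log2 fold change was -0.21 ± 0.21 with an adjusted p of 0.54, and 0.18 after scaling. The difference between the changes of the receptors was not tested.

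The docking and membrane peroxins overlapped between the groups in most cases. Pex14, a docking protein for the loaded receptors, stood at 11.5, 9.95, 9.01 and 4.93 FPKM with vehicle and 5.45, 7.63, 8.43 and 6.57 FPKM with dexamethasone. Vehicle 4 was the lowest of all 8 libraries, and the log2 fold change was -0.26 with an adjusted p of 0.53, and 0.11 after scaling. Pex19, the cytosolic carrier of membrane proteins, stood at 15.8, 14.0, 19.4 and 11.3 FPKM with vehicle and 7.82, 12.7, 11.7 and 9.94 FPKM with dexamethasone. Dexamethasone 2 and 3 lay above vehicle 4, and its log2 fold change was -0.48 ± 0.23 with an adjusted p of 0.19, and -0.09 after scaling. Pex13, the docking partner of Pex14, had a log2 fold change of -0.72 with an SE of 0.44, the widest of the 41 genes, and -0.43 after scaling, and its dexamethasone libraries ran from 0.764 to 9.40 FPKM. The ubiquitin ligase genes Pex2 and Pex10 had log2 fold changes of -0.60 and -0.90, and -0.33 and -0.64 after scaling. Pex6 and Pex26, which recycle the receptors, had values of -0.32 and -0.61, and 0.06 and -0.29 after scaling. Pex3 and Pex16, which place membrane proteins, had values of -0.84 and -0.36, and -0.55 and -0.02 after scaling. None of these 7 genes passed the threshold as deposited or after scaling, with Pex10 nearest at an adjusted p of 0.057 as deposited. Pex26 did not overlap between the groups as deposited. The locus the authors gave for Pex6 spans 37 other coding genes in the annotation, so what its level counts is uncertain. In all, the given locus holds another coding gene for 12 of the 42 genes, Acaa1a, Acaa1b, Hacl1 and Acot4 among them.

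Set side by side, enzymes and peroxins had similar medians. As deposited 1 of the 25 enzymes rose and 5 fell, with a median log2 fold change of -0.43, and 1 of the 13 peroxins rose and 1 fell, with a median of -0.48. After scaling 1 enzyme rose and 3 fell with a median of -0.02, and 1 peroxin rose and 0 fell with a median of -0.09. At an unadjusted p under 0.05 after scaling there were 3 of the 13 peroxins and 9 of the 25 enzymes, beside 2063 of the 10221 tested genes. By groups that did not overlap, 2 of the 41 genes were higher and 10 lower as deposited, where 2.18% and 16.2% of all tested genes were. After scaling 3 were higher and 5 lower, where 7.32% and 7.1% were. Within each library, the mean log2(FPKM + 1) of the enzymes exceeded that of the peroxins by 1.62, 1.67, 1.78 and 1.72 with vehicle and by 1.65, 1.497, 1.64 and 1.64 with dexamethasone. The means of 1.697 ± 0.0691 and 1.61 ± 0.0729 differed by little more than their spread, and the groups overlapped. As a share of the FPKM summed outside Lars2, the 42 genes made up 0.787%, 0.890%, 0.774% and 0.807% with vehicle and 0.756%, 0.705%, 0.709% and 0.665% with dexamethasone. Vehicle libraries were all higher, and the means were 0.814% ± 0.0519 and 0.709% ± 0.0372. The 42 genes summed to a mean of 1536 FPKM with vehicle and 1084 FPKM with dexamethasone. Acaa1b went from a mean of 118 to 32.2 FPKM and Nudt7 from 109.9 to 30.4 FPKM. The more abundant genes Phyh, Scp2, Cat and Uox also had lower means with dexamethasone as deposited. The part of each gene in the difference was not computed. The enzymes alone made up 0.719% ± 0.0467 with vehicle and 0.621% ± 0.036 with dexamethasone. Their share ran from 0.684% to 0.785% and from 0.581% to 0.668%, without overlap. The share without Acaa1b and Nudt7, which are among the enzymes, was not computed. A summed share is weighted by the most abundant genes, so it does not show a fall of the enzymes as a set. The peroxins alone made up 0.0554% ± 0.00571 and 0.0557% ± 0.00272, with overlapping groups.

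**Figure D3:**
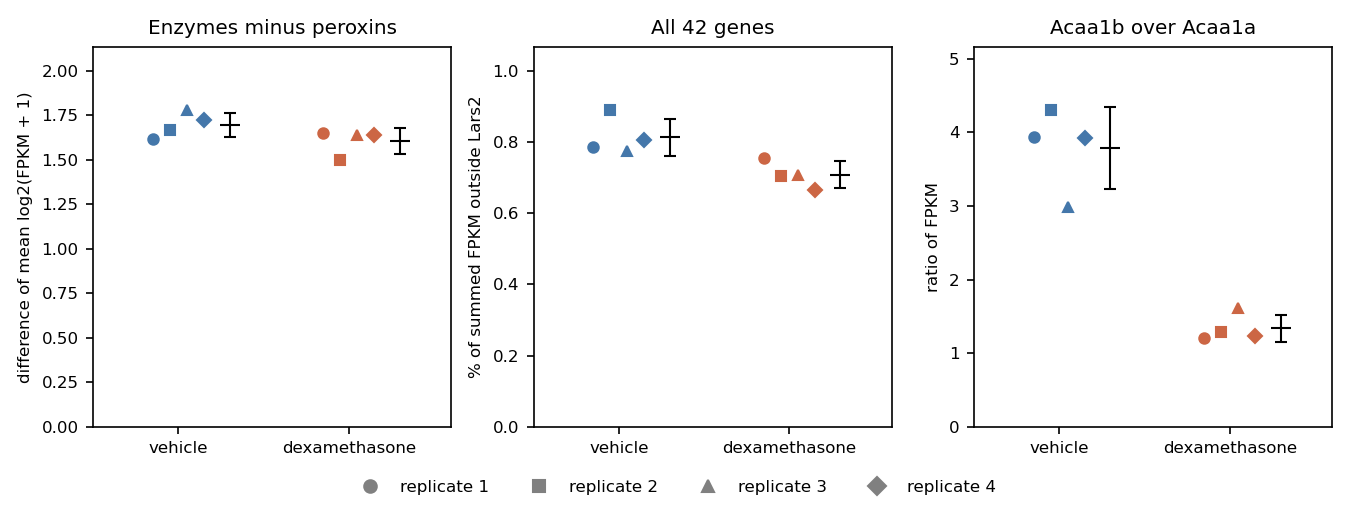
Measures taken within each library: the mean log2(FPKM + 1) of enzymes minus that of peroxins, the share of FPKM outside Lars2 taken by the 42 genes, and the ratio of Acaa1b to Acaa1a. Horizontal bars are means and vertical bars the SD (n = 4); the ratio lies between 2.99 and 4.30 with vehicle and between 1.21 and 1.61 with dexamethasone, whereas enzymes minus peroxins overlaps between the groups.

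By level, 4 genes stood above all others with vehicle, namely Phyh, Scp2, Cat and Uox, whose ranges overlapped each other and lay above that of Acaa1b. Acaa1b and Nudt7 followed and overlapped each other, and every range from Abcd3 down to Agps overlapped that of the next gene. With dexamethasone the same 4 genes had the highest means, with Scp2 ahead of Phyh. Acaa1b went from the 5th to the 6th place, Nudt7 from the 6th to the 8th and Crot from the 12th to the 20th. Pex11a went from the 27th to the 17th place and passed Pex5. The places rest on means, and many neighbours in the order did not differ beyond their spread.

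The authors' second measure was scaled fragment counts. Without further scaling 1 of the 41 genes rose by it, Acox2, and 10 fell, where 1.59% and 14.4% of all tested genes did. Among the 10 were Acaa1a, Pipox, Pex13 and Pex26, which did not pass from FPKM, with adjusted p-values of 0.0477, 0.0466, 0.026 and 0.019, and none of these 4 passed once the fragments were scaled. After scaling, the log2 fold changes from fragments were -1.34 for Acaa1b, -1.69 for Nudt7, -0.92 for Crot, 1.33 for Acox2 and 1.23 for Pex11a, all past the threshold. By this measure Acot4 and Abcd3 also fell, at -1.17 and -0.45 with adjusted p-values of 0.022 and 0.038, and Eci2 and Pxmp4 also rose, at 0.60 and 0.73 with adjusted p-values of 0.036 and 0.0026. Among the 41 genes 4 rose and 5 fell by fragments, where 5.32% and 5.26% of all tested genes did.

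**Figure D4:**
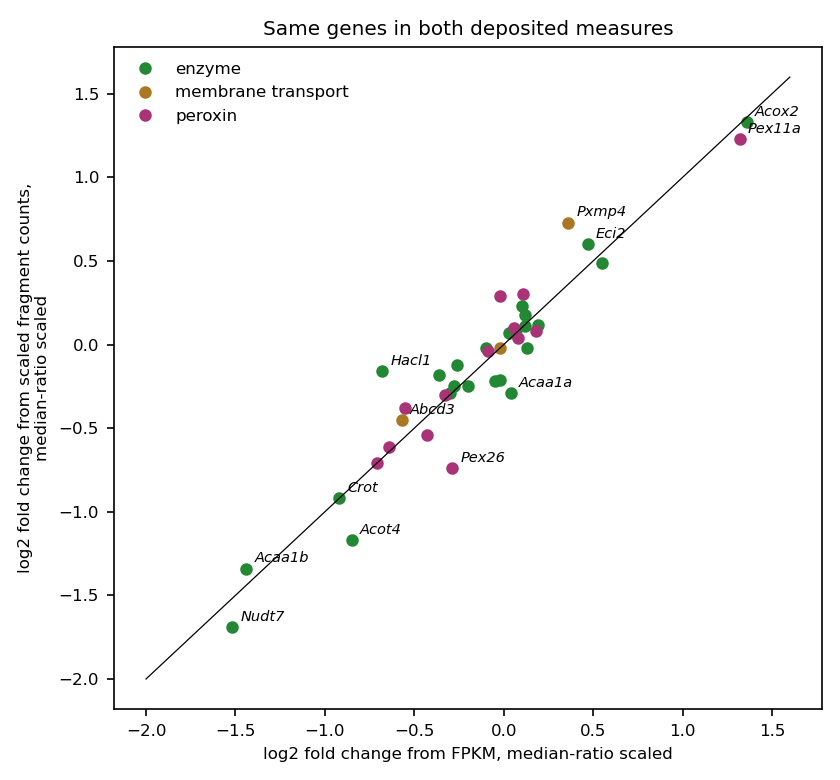
Log2 fold change of the 41 tested genes from FPKM (horizontal axis) and from the authors' scaled fragment counts (vertical axis), both after median-ratio scaling; the line marks equal values. Most genes lie near the line, and Hacl1, at -0.68 from FPKM and -0.16 from fragments, lies above it.

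Other genes listed as peroxisomal, outside the set, were read as well. Of 36 listed, 30 were tested. As deposited 1 rose and 5 fell, where 1.37% and 7.85% of all tested genes did, and the median log2 fold change was -0.40, beside -0.28. After scaling 2 rose and 3 fell, where 3.35% and 3.06% of all tested genes did, and the median was -0.07, beside 0.00. Acbd5, which ties peroxisomes to the endoplasmic reticulum, fell by 1.15 on the log2 scale with an adjusted p of 0.0088, and by 0.76 after scaling with an adjusted p of 0.033. The only rise as deposited was that of Abcd4, a transporter first named as peroxisomal and now known from lysosomes. It went from 0.879 ± 0.401 to 3.17 ± 0.681 FPKM, a log2 fold change of 1.16 with an adjusted p of 0.0081, and of 1.39 after scaling.

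PPARA and its other targets were read for comparison. Ppara stood at 27.5, 28.9, 28.5 and 27.8 FPKM with vehicle and 21.7, 19.2, 25.0 and 16.8 FPKM with dexamethasone. Although the groups were apart as deposited, the log2 fold change of -0.44 ± 0.19 had an adjusted p of 0.15, and it was -0.04 after scaling. Rxra, its partner, had values of -0.59 and -0.20 with adjusted p-values of 0.078 and 0.6. Of 30 listed PPARA targets outside the peroxisomal set, 28 were tested. As deposited 2 rose and 1 fell, where 1.37% and 7.85% of all tested genes did, and the median log2 fold change was 0.03, beside -0.28. After scaling 6 rose and 1 fell, where 3.35% and 3.06% of all tested genes did, and the median was 0.40, beside 0.00. Cyp4a14, a fatty acid hydroxylase of the endoplasmic reticulum, stood at 58.5, 6.26, 1.42 and 7.08 FPKM with vehicle and 71.4, 156, 222 and 75.7 FPKM with dexamethasone. All dexamethasone libraries were above all vehicle libraries, and the log2 fold change was 3.62 ± 0.72 with an adjusted p of 0.0091, and 3.99 after scaling. Its close relative Cyp4a10 stood at 91.6, 20.2, 6.25 and 22.7 FPKM with vehicle and 60.1, 70.7, 60.1 and 46.0 FPKM with dexamethasone. Vehicle 1 was the highest of all, and the adjusted p was 0.14. The lipase inhibitor gene Angptl4 rose by 1.19 on the log2 scale with an adjusted p of 0.0089, and Fabp1, the liver fatty acid carrier, fell by 1.00 with an adjusted p of 0.014. Both passed the threshold after scaling too, at 1.59 and -0.59.

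Summed markers of other liver cells were low beside those of hepatocytes. The 8 lymphocyte markers summed to 1.52 to 2.67 FPKM with vehicle and 0.113 to 0.652 FPKM with dexamethasone, without overlap, and Cd3d was at 0 in all libraries. The 10 macrophage markers summed to 27.9 to 60.4 and 22.5 to 34.0 FPKM, the 8 sinusoidal endothelial markers to 59.1 to 77.1 and 49.5 to 81.9 FPKM, and the 8 stellate cell markers to 66.9 to 78.9 and 49.9 to 81.5 FPKM. After scaling the sinusoidal endothelial sums no longer overlapped, at 49.7 to 64.5 with vehicle and 67.1 to 81.7 with dexamethasone. Of these 8 markers 3, Stab1, Lyve1 and Oit3, then passed the threshold as higher, where 3.35% of all tested genes did. After scaling 3 of the 8 had negative log2 fold changes, down to -0.46. As deposited 1 of the 8 passed as higher and 1 as lower. The 6 cholangiocyte markers summed to 19.0 to 55.8 and 12.8 to 30.1 FPKM, the 6 neutrophil markers to at most 1.41 FPKM in any library with Ly6g, Retnlg and Camp at 0 in all, and the 5 erythroid markers found to 14.5 to 21.8 and 14.2 to 22.3 FPKM. Their part in the changes of the peroxisomal genes was not tested.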

How the data were processed

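RNA was measured in 8 liver libraries, 4 per group, grouped by their labels. Per the submitters' processing notes, the tools were CASAVA 1.8 and TopHat2 and the build was hg19, which is human. The table nevertheless lists mouse identifiers, and all 42 genes matched the GENCODE M21 annotation of GRCm38 in chromosome and strand. The counting tool is not given in the sources used here.

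Per the file headers, the authors deposited FPKM for each library. The columns called counts in the header were deposited by the authors as a signal: 93.2% to 95.4% of values under 500 steps per library were whole multiples, within 0.01 of a step, of a step particular to the library. They are treated as fragment counts scaled by that step, and the value over the step is the inferred number of fragments. Locus length, another column of the authors, was not used as a measurement.

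Tests used limma 3.58.1 and statmod 1.5.0 in R 4.3.3: a linear model of log2(FPKM + 1) on treatment alone (lmFit), moderated with eBayes and trend, two-sided, adjusted by Benjamini-Hochberg over 10221 genes. The steps were tested on simulated data. The labels do not state that each library is a separate mouse, so p-values measure the spread between these samples, which may be technical. Alternatives were other pseudocounts (0.1, 0.5), other filters (none, 1 FPKM), median-ratio scaling, quantile normalization, robust or trend-free eBayes, the replicate number as a term, and each library left out. The fits with scaled fragment counts were chosen after seeing the data.

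Given in every library were the genes past the threshold as deposited or after scaling, and Acaa1a, Ehhadh, Cat, Scp2, Hao1, Uox, Pex5, Pex14 and Pex19 whatever their values. Outside the set were Ppara, Rxra, Ppargc1a, Cyp4a10, Cyp4a14 and up to 3 genes of smallest p of each other list, of which 1 gene is not reported here. The genes and lists were chosen with earlier results of these data known, and lists are described by counts and medians, without tests.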

Additional observations from a re-analysis of the deposited data

Results flagged for a closer look

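In 84 groups of 4 values for the 42 genes, and 90 groups in all with the measures within libraries, a library lay apart from the other 3 of its group in 4 cases by Dixon's criterion, which chance meets in about 1 in 20 groups. Hsd17b4 was at 21.2 FPKM in dexamethasone 4, with the others at 33.4 to 34.2. Uox was at 96.8 FPKM in dexamethasone 4, with the others at 141 to 147. Dexamethasone 4 was also the library with the highest Lars2 share, at 51.1%, and the fewest inferred fragments; the part of these in both values was not tested. Pex11a was at 5.90 FPKM in vehicle 4, with the others at 8.16 to 8.52. Enzymes exceeded peroxins by 1.497 on the log2 scale in dexamethasone 2, with the others at 1.64 to 1.65.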

How the results depend on the processing

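The 5 genes past the threshold both as deposited and after scaling kept their direction under each alternative run. Acaa1b, Nudt7 and Crot kept the threshold under each, and Acox2 and Pex11a missed it where given above. As deposited 140 genes rose and 802 fell. Without a filter 487 genes fell, of them 4 of the 41 peroxisomal genes and 0 peroxins. Scaled fragment counts gave 1473 falls, 1 rise and 10 falls among the 41 genes, 0 rises and 3 falls among peroxins, a median log2 fold change of all genes of -0.46, and Pxmp4 at 0.26.

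Quantile normalization gave 335 rises and 335 falls, and 3 falls among the 41 genes, all in enzymes, and 0 among peroxins. Its medians were 0.00 for all genes, -0.06 for enzymes and -0.13 for peroxins, and genes without a call turned positive: Acaa1a to 0.03, Hsd17b4 0.06, Scp2 0.07, Acox3 0.15, Acot8 0.09, Nudt19 0.06, Cat 0.02, Gnpat 0.08, Pxmp4 0.33, Pex5 0.16, Pex14 0.06, Pex6 0.01 and Pex11g 0.05. Median-ratio scaling gave 342 rises and 313 falls, with 3 falls among the 41 genes, all in enzymes, 0 among peroxins, and medians of 0.00, -0.02 and -0.09. The genes that turned positive were Acaa1a at 0.04, Hsd17b4 0.10, Scp2 0.12, Acox3 0.19, Phyh 0.03, Acot8 0.13, Nudt19 0.07, Cat 0.05, Gnpat 0.12, Pxmp4 0.36, Pex5 0.18, Pex14 0.11, Pex6 0.06 and Pex11g 0.08. Scaled fragment counts with this scaling gave 544 rises, 4 rises among the 41 genes with 2 in enzymes, 0 falls among peroxins and medians of -0.01, -0.12 and -0.04. Positive there were Hsd17b4 at 0.23, Scp2 0.18, Acox3 0.12, Phyh 0.07, Nudt19 0.09, Cat 0.09, Gnpat 0.11, Pxmp4 0.73, Pex5 0.08, Pex14 0.30, Pex6 0.10, Pex16 0.29 and Pex11g 0.04. By construction these scalings move the median of all genes from -0.28 to 0.00 or near it.

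Replicate numbers did not pair the libraries: same-numbered libraries correlated at -0.015 to 0.021 after group means were removed, and 0 vehicle libraries were most alike to their own number. With the replicate number as a block, 159 genes rose and 956 fell, with 2 rises and 8 falls among the 41 genes and 2 falls among peroxins. The replicate block with median-ratio scaling gave 243 rises and 190 falls, 3 falls among the 41 genes, all in enzymes, 0 among peroxins, and the same fold changes as that scaling alone.

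Leaving out each library, with and without scaling, gave 81 to 280 rises and 175 to 872 falls over all genes, 1 to 2 rises and 3 to 9 falls among the 41 genes, 0 to 1 rises and 3 to 6 falls in enzymes, and 0 to 1 rises and 0 to 2 falls in peroxins. As deposited the falls among the 41 genes were 3 without vehicle 1, vehicle 2 or dexamethasone 3, and the rises 1 without vehicle 3 or dexamethasone 3. The medians ran from -0.34 to 0.00 for all genes, -0.47 to 0.02 for enzymes and -0.57 to -0.06 for peroxins. The ranges that follow pool the fits with and without scaling, so a change of sign in them can come from the scaling alone. Scp2 ran from -0.40 to -0.10 as deposited and from 0.05 to 0.19 after scaling. As deposited only Eci2 and Pxmp4 changed sign when a library was left out, at -0.04 to 0.15 and -0.17 to 0.23. Genes without a call that changed sign ran from -0.46 to 0.12 for Acaa1a, -0.37 to 0.15 for Hsd17b4, -0.40 to 0.19 for Scp2, -0.28 to 0.24 for Acox3, -0.04 to 0.58 for Eci2, -0.52 to 0.10 for Phyh, -0.33 to 0.19 for Acot8, -0.62 to 0.25 for Nudt12, -0.37 to 0.22 for Nudt19, -0.48 to 0.14 for Cat, -0.58 to 0.06 for Pipox, -0.55 to 0.07 for Uox, -0.67 to 0.04 for Agps, -0.36 to 0.22 for Gnpat, -0.57 to 0.11 for Pxmp2, -0.17 to 0.50 for Pxmp4, -0.32 to 0.35 for Pex5, -0.48 to 0.25 for Pex14, -0.40 to 0.09 for Pex6, -0.55 to 0.13 for Pex16, -0.60 to 0.07 for Pex19 and -0.58 to 0.28 for Pex11g. The planned count tests were not run, because whole reads could not be recovered. Depth limits the low genes, such as Acot4 and Pex10, which rested on 4 to 20 and 7 to 14 inferred fragments with dexamethasone.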

Other observations

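Genes that bear on peroxisomes from outside were read in the same fit. Ppargc1b, a coactivator of fatty acid oxidation, stood at 4.12, 3.496, 4.36 and 3.41 FPKM with vehicle and 1.19, 1.36, 1.99 and 1.21 FPKM with dexamethasone. The groups did not overlap, and it fell by 1.00 on the log2 scale with a limma adjusted p of 0.011, with -0.70 and 0.0483 after scaling. Ppargc1a, its relative, was at 0.610 ± 0.201 FPKM with vehicle and 1.85 ± 0.934 FPKM with dexamethasone, and missed the threshold with an adjusted p of 0.065 and, after scaling, 0.0517. Nr3c1, the gene of the glucocorticoid receptor itself, went from 9.87 ± 1.53 to 4.81 ± 1.25 FPKM, with an adjusted p of 0.021 as deposited and 0.099 after scaling. Of the 12 regulators listed, 0 rose and 2 fell as deposited, where 1.37% and 7.85% of all tested genes did. After scaling 0 rose and 1 fell, where 3.35% and 3.06% of all tested genes did.

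Mitochondrial beta-oxidation gave 0 calls among 17 genes as deposited by limma, where 9.22% of all tested genes were called. At an unadjusted p under 0.05 there were 2, beside 2799 of all 10221 genes. The median log2 fold change was -0.15, beside -0.28 for all tested genes. After scaling 1 rose, Hadha, where 3.35% of all tested genes did. At an unadjusted p under 0.05 there were then 7, beside 2063 of all genes, and the median was 0.23, beside 0.00. The genes of smallest p as deposited were Hadh, at -0.82 with an adjusted p of 0.064, and Decr1, at -0.68 with an adjusted p of 0.1. After scaling they were at -0.44 and -0.32, with adjusted p-values of 0.19 and 0.42. Cpt1a, which lets fatty acids into mitochondria, was at 37.4 ± 3.68 and 29.3 ± 1.35 FPKM, with an adjusted p of 0.24. The log2 fold change of Cpt1a was -0.34 as deposited and 0.07 after scaling. The fission genes that peroxisomes share with mitochondria, Mff, Dnm1l and Fis1, had log2 fold changes of -0.75, -0.51 and 0.06, with adjusted p-values of 0.15, 0.15 and 0.9. After scaling the changes were -0.41, -0.26 and 0.42, none past the threshold.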
